A study of Canis lupus familiaris with 33 samples.

Results

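Among 29 canine invasive urothelial carcinoma (iUC) tumors, the 10 with the highest and the 10 with the lowest expression of 4 luminal genes, PPARG, FOXA1, GATA3 and UPK2, were compared across all other genes. The deposited TMM-normalized values of the 4 genes were averaged in each tumor, without the normal samples, and the groups are called high and low tumors here. The remaining 9 tumors lay between them and entered no test of the 2 groups. The tumors were cystoscopic biopsies of naturally occurring cancers, each from a different treatment-naive dog of any age, sex or breed, and were chosen by the study as high-grade tumors made up almost wholly of epithelial cells. The series also holds 4 samples of normal bladder mucosa separated by dissection, labelled as urothelial cells. All 33 samples were sequenced in 1 batch from ribosome-depleted RNA. No sample was treated or genetically altered, and a biopsy is bulk tissue, so that fewer cells of a type and less RNA per cell cannot be told apart.

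The urothelium lines the bladder. Its surface umbrella cells carry plaques of uroplakins, and its basal cells carry basal keratins and CD44. PPARG is a nuclear receptor for lipid ligands, FOXA1 and GATA3 are transcription factors that act together in luminal epithelia, and UPK2 is a uroplakin. In urothelial cells these factors maintain the luminal program, and tumors that lose it often carry basal, squamous or mesenchymal genes.

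Each deposited value is on a log2 scale and centred on the gene's median across the 33 samples, so that 0 is that median and levels of different genes cannot be compared. The score, the mean of the 4 genes, ran from 0.17 to 1.18 in the high tumors, with a median of 0.38. In the low tumors it ran from -1.82 to -0.19, with a median of -0.45. These values chose the groups and are a description. The division is a cut through a continuous range: tumor 10 entered the high group at 0.17 and the next tumor below it had 0.11, while tumor Za entered the low group at -0.19 and the next above it had -0.10. Tumor Ab stood above the other high tumors at 1.18, and tumor Da6 was the lowest of all at -1.82. Over the 29 tumors, Pearson's r between pairs of the 4 genes was 0.52 to 0.74. The normals had scores of -1.78 to -0.52, within or near the range of the low tumors.

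**Figure D1:**
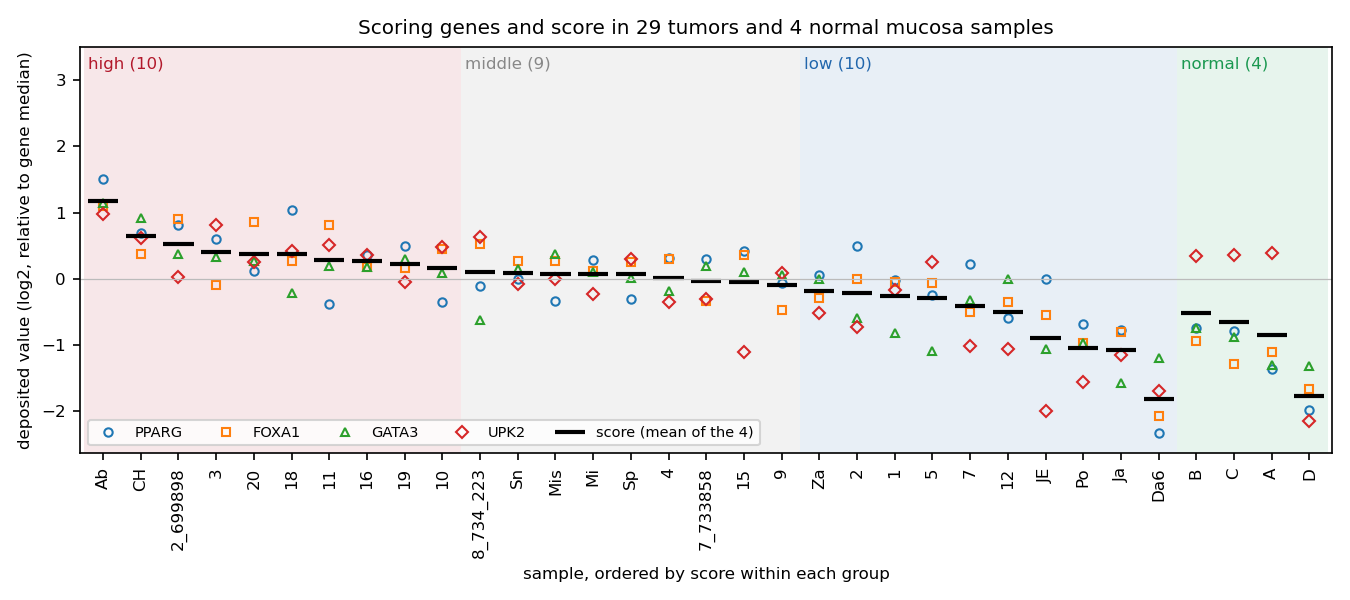
Deposited log2 values of PPARG, FOXA1, GATA3 and UPK2 (open symbols) and their mean (black bars) in each sample, with the 10 high, 9 middle and 10 low tumors and the 4 normals on shaded ground. Scores fall from 1.18 in tumor Ab to -1.82 in tumor Da6, both set off from their neighbours, and the groups meet the middle tumors with small steps.

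The 4 genes did not move in step in every tumor. UPK2 had the widest gap between the group means, 0.44 ± 0.32 (SD, n = 10) in the high and -0.96 ± 0.70 (SD, n = 10) in the low tumors. PPARG had the narrowest, 0.49 ± 0.59 against -0.38 ± 0.80, and its values overlapped: tumor 11 in the high group had -0.38 and tumor 2 in the low group had 0.50. To measure the coupling on values that the grouping had not used, each gene was left out of the score and tested between the 10 highest and 10 lowest tumors by the other genes. The difference was 1.16 for UPK2 (limma p = 0.000895, adjusted p = 0.0973), 1.00 for FOXA1 (p = 0.000678, adjusted p = 0.108), 0.76 for GATA3 (p = 0.00801, adjusted p = 0.214) and 0.66 for PPARG (p = 0.0489, adjusted p = 0.328). All 4 were positive with an unadjusted p under 0.05, and none passed an adjusted p of 0.05 over all genes. These groups shared 7 to 10 tumors of each 10 with the main ones.

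2 measures of low-level signal, called background here, were compared between the groups. In many genes several samples share 1 lowest value, the floor of the table, and the number of genes at it tells how few genes were detected in a sample. It was 7204 ± 617 (SD, n = 10) in the high tumors and 6082 ± 1195 in the low tumors (permutation test, two-sided, p = 0.00758). Of 140 olfactory receptor genes, which bladder tissue is not known to use, 18.1% ± 9.9 were above the lowest value in the high and 41.2% ± 29.3 in the low tumors (permutation p = 0.0249). Tumors 5 and Po, both low, had the highest shares of all 29 tumors, 92.1% and 86.4%. Tumor 9, between the groups and in no test of them, had 77.1%, followed by the low tumors 1 with 58.6% and Za with 46.4%. Without tumors 5 and Po the groups differed by 588 genes at the lowest value (permutation p = 0.0341) and the olfactory share was 18.1% against 29.2%, a difference of -11.1 percentage points (permutation p = 0.106). In the normals 100% of these genes lay above the lowest value. The source of this signal cannot be told from the tables. The part of this background in the differences below was not tested other than by the values given without those tumors and with either measure as a covariate.

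**Figure D2:**
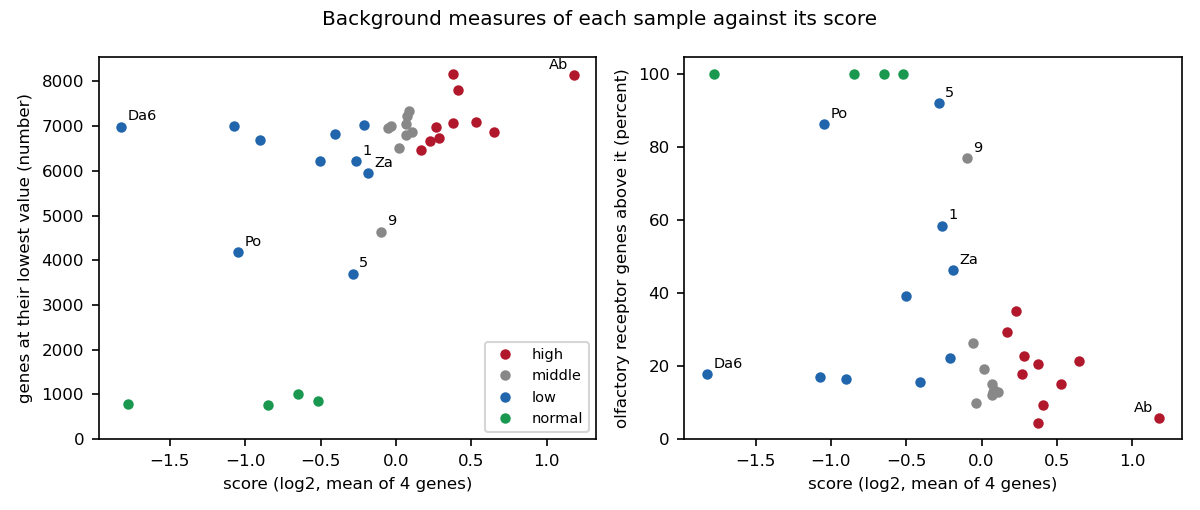
Number of genes at their lowest value (left) and percent of 140 olfactory receptor genes above it (right), each against the score, 1 point per sample. Tumors 5 and Po, both low, tumor 9 of the middle and all 4 normals have few genes at the lowest value and a high olfactory share.

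Of 19234 genes tested, 53 passed an adjusted p of 0.05 and a 2-fold difference (0.276%), 2 higher (0.0104%) and 51 lower (0.265%) in the high tumors. The genes that passed were thus almost all lower where the luminal genes were high. Of the 51, 7 reached the required 10 tumors above the lowest value only through the low tumors. A difference was built in for these 7, and they remain in the counts below. Called below means past both thresholds in limma with Benjamini-Hochberg adjustment over all genes tested, and every difference is high minus low on the log2 scale. Differences of the called genes ranged in size from 1.07 to 4.01 with a median of 2.12, while the median over all genes was -0.03. At an unadjusted p under 0.05 there were 912 higher genes (4.74%) and 1891 lower ones (9.83%). High and low tumors did not overlap at all in 3 genes (0.0156%), of which 2 were called; none of the 3 has a symbol.

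**Figure D3:**
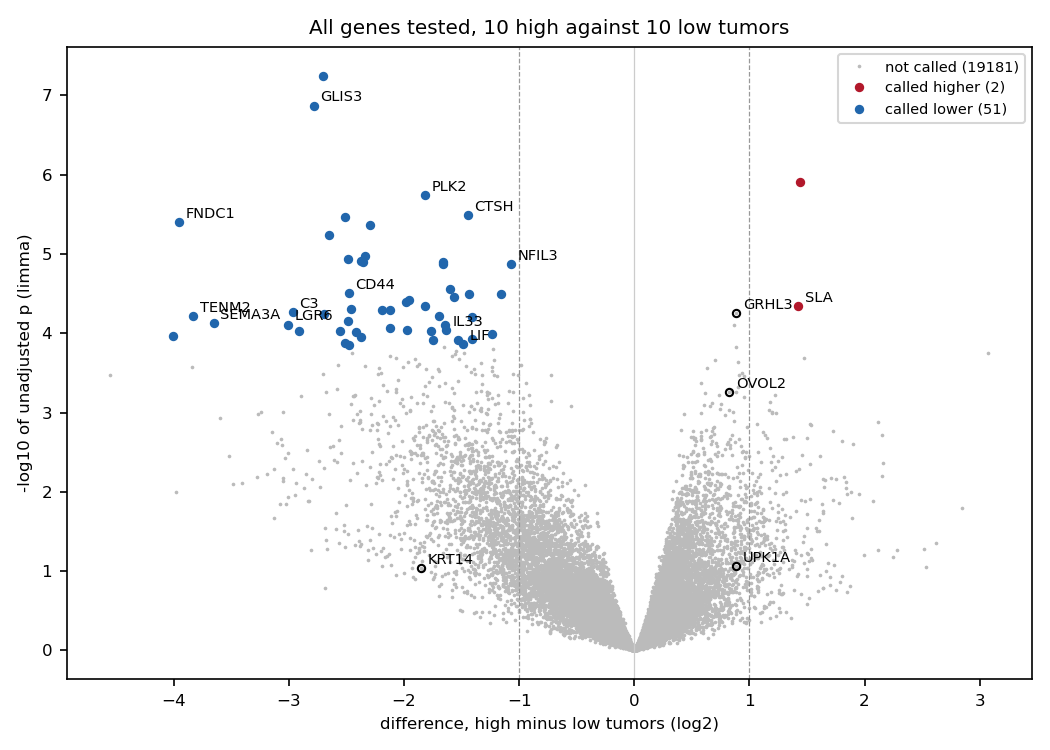
Difference between 10 high and 10 low tumors (log2, x axis) against -log10 of the unadjusted limma p (y axis) for 19234 genes, with the 2 genes called higher in red and the 51 called lower in blue. Dashed lines mark 2-fold; black circles are named genes that were not called, including GRHL3, KRT14 and UPK1A.

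The number of called genes moved strongly with the tumors included, in both directions, and fell with either background measure as a covariate. It was 0 with 14 tumors a group and 3 with the score lacking GATA3. Without tumors 5 and Po 17 genes were called (0.0884%), without tumors 5, Po, 1 and Za 84 (0.437%), 37 of the 53 among them, and with the number of genes at the lowest value as a covariate 5 (0.026%). Leaving out 1 tumor at a time gave 16 to 176 calls, the lowest without tumor 3 and the highest without tumor 1. All 53 kept their direction in each of the 20 omissions, and 15 were called in every one. The 53 were chosen in these same tumors, so a kept direction was near certain in advance in this and the following refits. ENSCAFG00000035194, ENSCAFG00000002155 and ENSCAFG00000027163, of the genes with a built-in difference, were among the 15. All 53 also kept their direction, a 2-fold difference and an unadjusted p under 0.05 without tumors 5 and Po and with either background measure as a covariate, but 16 were still called in the first case, 5 with the count of genes at the lowest value and 14 with the olfactory share.

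GLIS3, a zinc finger transcription factor, had the smallest p among genes with a symbol. Its values were -3.03 to -0.53 in the high tumors, with a median of -1.91, and -1.01 to 1.63 in the low tumors, with a median of 0.98. Of the low tumors, 9 lay above every high tumor, and tumor 1 was the one that did not. The difference was -2.78 ± 0.36 (SE, adjusted p = 0.00129), a 6.88-fold lower level in the high tumors, and it remained called without tumors 5 and Po (-2.67, adjusted p = 0.0154) and with the background covariate (-2.52, adjusted p = 0.0411).

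The called genes are grouped below by their known roles, a grouping made after their values were seen, and the report names all 37 that carry a symbol. Several are transcriptional or signaling genes that respond early to stress and growth factors. PLK2, a stress-induced polo-like kinase, was -1.44 to 0.94 in the high tumors and 0.47 to 1.96 in the low tumors, a difference of -1.81 ± 0.28 (SE, adjusted p = 0.0086). Every low tumor lay above the median of the high tumors, and 7 lay above all of them. IER3, an immediate early gene, differed by -1.60 (adjusted p = 0.0304), RHOB, a stress-inducible small GTPase, by -1.98 (adjusted p = 0.0406), and NFIL3, a basic leucine zipper factor, by -1.07 (adjusted p = 0.0163). BACH2, a transcriptional repressor of lymphocytes, differed by -2.37, and TBX5, a T-box factor, by -2.12, and both were at the lowest value in some high tumors (6 and 8 of 10 above it).

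Genes of cell adhesion and of the cell surface formed another part. CD44, the hyaluronan receptor that marks basal urothelial cells, was -1.97 to 0.77 in the high tumors, with a median of -0.70, and -0.49 to 3.68 in the low tumors, with a median of 1.80. Of the low tumors, 8 lay above every high tumor; tumor 7 had the highest value, and tumor Ja, at -0.49, lay among the high tumors. The difference was -2.48 ± 0.47 (SE, adjusted p = 0.0304), or 5.58-fold, and the adjusted p was 0.0637 without tumors 5 and Po. LGR6, a receptor for R-spondins, was at its lowest value in 6 of 10 high tumors and above it in all 10 low tumors, with a difference of -3.004 ± 0.61 (SE, adjusted p = 0.039). FNDC1, a protein with fibronectin domains, had the largest difference among genes with a symbol, -3.95 ± 0.64 (SE, adjusted p = 0.0104). Its values were -4.23 to 0.00 in the high and -0.68 to 4.86 in the low tumors, and it was called in each of the 20 single-tumor omissions but not with the background covariate (-3.64, adjusted p = 0.099). CNN3, a calponin that binds actin, differed by -1.44 (adjusted p = 0.0304), and TSPAN2, a tetraspanin, by -2.48 (adjusted p = 0.0493). ADAMTSL4 (-1.76), SDK2 (-2.42) and CACHD1 (-1.41) were the others of this kind.

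A further group holds genes best known from the nervous system. SEMA3A, a secreted guidance cue, differed by -3.65 ± 0.74 (SE, adjusted p = 0.039), TENM2, a teneurin adhesion receptor, by -3.83 ± 0.76 (adjusted p = 0.0356), and the ephrin receptor EPHA7 by -2.56 ± 0.53 (adjusted p = 0.0406). The guidance receptor ROBO3 differed by -1.81, the reelin adaptor DAB1 by -2.65, the glutamate receptor GRM8 by -2.91, the glutamate transporter SLC1A2 by -2.19 and the channel-associated protein KCTD16 by -2.49. For most of these the values lay near the detection limit in the high tumors: SEMA3A was above its lowest value in 7, TENM2 in 8, DAB1 in 3 and KCTD16 in 6 of 10 high tumors, against 10 of 10 low tumors. They were also higher in the normals, which had the most background: the median of the normals was 5.85 for DAB1, 6.32 for EPHA7 and 5.68 for TENM2. The zinc transporter SLC39A12, with a difference of -2.12, had the same form, at 5 of 10 high tumors above the lowest value and 5.19 in the normals. The nerve marker NCAM1 and the muscle genes TPM2 and CALD1 were high in the normals as well, with medians of 6.56, 6.53 and 3.27, and the part of nerve and muscle in the called genes was not tested.

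Innate immune and inflammatory genes were also among the called ones. C3, the central complement component, was -3.36 to -0.66 in the high tumors, with a median of -1.97, and -2.05 to 3.45 in the low tumors, with a median of 1.40. Tumors JE and 7 were the low tumors within the range of the high ones. The difference was -2.97 ± 0.58 (SE, adjusted p = 0.0356), or 7.81-fold. IL33, an alarmin released by epithelial and stromal cells, was -2.22 to 0.00 in the high and -0.58 to 2.60 in the low tumors (difference -1.63 ± 0.34, SE, adjusted p = 0.0406). LIF, a cytokine of the IL-6 family, was -0.997 to 1.04 in the high and 0.01 to 2.44 in the low tumors (difference -1.48 ± 0.32, SE, adjusted p = 0.049). In both cytokines every low tumor lay above the median of the high tumors. TNFSF15, a TNF-family cytokine, differed by -2.29 (adjusted p = 0.0104), NOD2, a sensor of bacterial cell walls, by -1.41 (adjusted p = 0.0356), and RARRES2, which encodes the attractant chemerin, by -1.64 (adjusted p = 0.039). CTSH, a lysosomal cathepsin, was -1.46 to 0.64 in the high and 0.47 to 1.80 in the low tumors (difference -1.44 ± 0.23, SE, adjusted p = 0.0104), so that 9 low tumors lay above all high tumors, and unlike most of the called genes it was lowest in the normals, at a median of -1.36. ICAM4 differed by -1.75.

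The remaining called genes with a symbol were the kinase gene ALPK2 (-2.49), the nucleotide transporter SLC17A9 (-1.95), RAB3IL1 (-1.23) and KIAA1755 (-2.34). Of the 51 lower genes, 30 were above the lowest value in all 10 high tumors and 21 were not. The median of the normals lay above that of the high tumors in 46 and above that of the low tumors in 37 of the 51, or 72.5%, against 52.5% of all genes tested for the latter. In the RefSeq annotation of the assembly UU_Cfam_GSD_1.0, RARRES2 overlaps REPIN1, CNN3 overlaps SLC44A3 and TBX5 overlaps the protein-coding gene LOC119866157; whether the counting used the strand is not given in the sources used here, so reads of such pairs cannot be told apart.

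**Figure D4:**
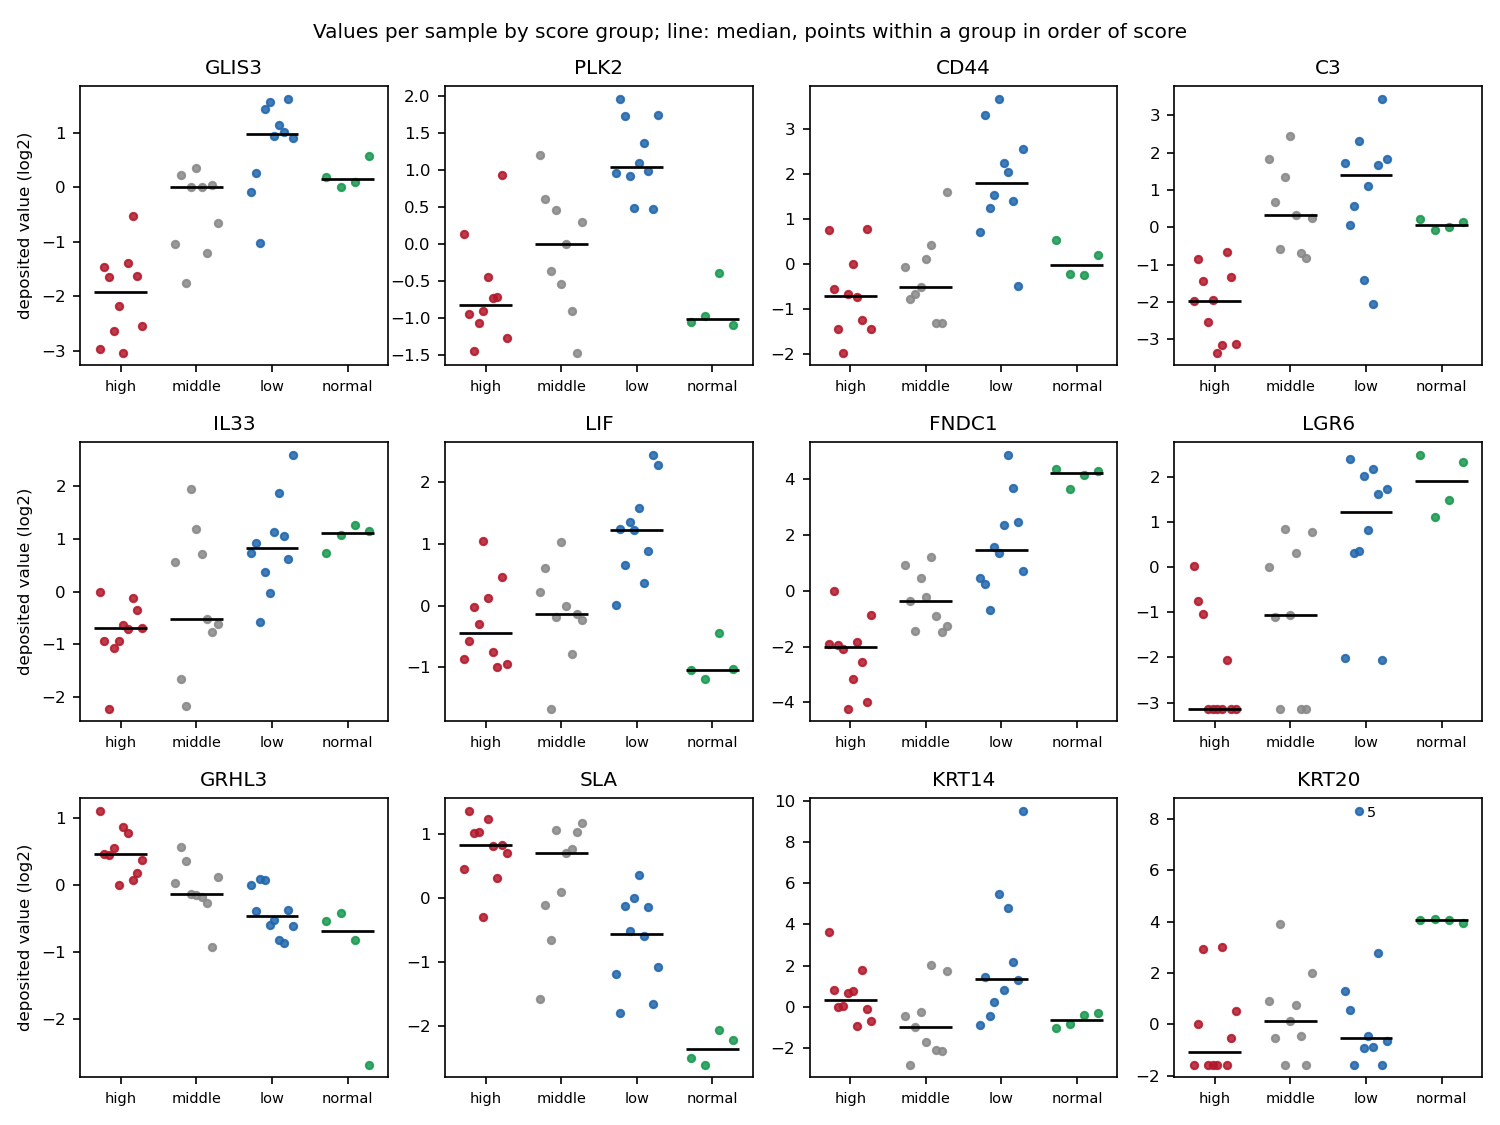
Deposited log2 values of 12 genes in each high, middle and low tumor and each normal, with black lines at group medians and points within a group in order of score. GLIS3, PLK2, CD44, C3, IL33, LIF, FNDC1 and LGR6 are lower in the high tumors, SLA is higher, GRHL3 passed the adjusted p but not 2-fold, and KRT14 and KRT20 differ more within groups than between them.

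Only 1 gene with a symbol was called higher in the high tumors, SLA, an adaptor that dampens antigen receptor signaling in lymphocytes. It was -0.29 to 1.37 in the high tumors, with a median of 0.83, and -1.81 to 0.37 in the low tumors, with a median of -0.56. The difference was 1.43 ± 0.28 (SE, adjusted p = 0.0348), or 2.69-fold, and the adjusted p was 0.0632 without tumors 5 and Po. SLA overlaps TG, the thyroglobulin gene, in the RefSeq annotation, with the same limit on strand. The other, ENSCAFG00000040134, has no symbol in the table. It was -0.13 to 1.21 in the high and -1.86 to -0.19 in the low tumors, without overlap (difference 1.44 ± 0.21, SE, adjusted p = 0.00796), and stayed called without tumors 5 and Po and with the background covariate. The lower gene with the smallest p, ENSCAFG00000035194, was at its lowest value in 9 of 10 high tumors and above it in all 10 low tumors (difference -2.71 ± 0.33, SE, adjusted p = 0.00109). It was 1 of 7 called genes, none with a symbol, that reached the required 10 tumors above the lowest value only through the low group, so that a difference was built in.

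GRHL3, a grainyhead factor that drives umbrella cell differentiation, and FCHO2, an endocytic adaptor, passed the adjusted p below 2-fold; FCHO2 is named after its value was seen. GRHL3 was 0.00 to 1.11 in the high and -0.87 to 0.09 in the low tumors, a difference of 0.89 ± 0.18 (SE, adjusted p = 0.0356), or 1.85-fold. No low tumor reached the median of the high tumors. Its adjusted p was 0.0715 without tumors 5 and Po. FCHO2 differed by 0.87 ± 0.18 (SE).

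No gene of the urothelial and luminal lists was called, and their members lay on both sides of 0. Of 18 other urothelial and luminal transcription factors 13 had positive and 5 negative differences; 6 had an unadjusted p under 0.05 in the higher and 1, KLF4, in the lower direction, against 4.74% higher and 9.83% lower over all genes, with a median difference of 0.46 against -0.03 over all genes. GRHL3 alone of these was called in the fit without tumors 5, Po, 1 and Za (adjusted p = 0.0311), and its adjusted p was 0.164 with the number of genes at the lowest value and 0.0837 with the olfactory share as a covariate. OVOL2, a repressor of mesenchymal genes, had a difference of 0.83 ± 0.20 (SE, adjusted p = 0.0807), and KLF5, an epithelial zinc finger factor, 0.67 ± 0.19 (adjusted p = 0.113). ELF3, an epithelial ETS factor, had -0.09 ± 0.23, and its groups overlapped. Of 7 uroplakin and umbrella cell genes, none was called and 1 was higher at an unadjusted p under 0.05 (4.74% of all genes were), SNX31, which encodes a sorting nexin, with 1.10 ± 0.43 (SE, adjusted p = 0.244). The list median of 0.53 was 1.11 with the background covariate and 0.86, with 3 higher at that p, without tumors 5, Po, 1 and Za. UPK1A had 0.89 ± 0.49 (adjusted p = 0.423) and UPK3A 0.53 ± 0.26 (adjusted p = 0.366). The UPK1A difference leaned on tumor Da6, at -4.65, and over the single-tumor omissions it was 0.46 to 1.10.

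KRT20, the umbrella cell keratin, had no clear relation to the score. It was at its lowest value in 5 of 10 high and 2 of 10 low tumors and reached 3.01 in the high and 8.32, in tumor 5, in the low tumors. The difference of -0.88 ± 1.05 (SE, adjusted p = 0.747) became 0.33 without tumors 5 and Po and 1.42 with the background covariate (adjusted p = 0.543). KRT19, a simple keratin, had a difference of 0.06 ± 0.29.

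The list of luminal genes that the study took from human tumors, 27 of which were tested, had 0 called genes, 7 higher and 0 lower at an unadjusted p under 0.05, where 4.74% of all genes were higher (4 with the covariate, where 4.25% were), and a median difference of 0.37. Among urothelial transport and detoxification genes, 0 of 16 were called and 3 were higher at that p, against 4.74% of all genes, among them the sulfotransferase SULT1A1 (0.55) and the urea transporter SLC14A1 (0.63). Lipid metabolism and PPAR target genes had a median difference of -0.17 with 0 of 22 called; FBP1 had 0.90 (adjusted p = 0.198) and CPT1A 0.75 (adjusted p = 0.227). The study's list of PPARG pathway genes had 1 of 27 called, RARRES2, against 0.265% called lower over all genes, and that call was lost without tumors 5 and Po (adjusted p = 0.0789) and with the covariate (adjusted p = 0.12). The list had 11 lower and 0 higher at an unadjusted p under 0.05, against 9.83% lower over all genes, and a median of -0.82. Its named members were RARRES2, the attractant above, VIM, a mesenchymal filament, and TPM2, a contractile tropomyosin. In epithelial junction genes 0 of 12 were called, with a median of 0.31 and 2 higher at that p, against 4.74% of all genes, ESRP2 (0.63, adjusted p = 0.113), an epithelial splicing regulator, and CGN (0.48), which encodes cingulin. CDH1, or E-cadherin, had 0.39 ± 0.22 (SE, adjusted p = 0.428).

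The basal and squamous lists had negative medians. Of 11 basal keratin and adhesion genes 1, CD44, was called lower, against 0.265% called lower over all genes. That call was lost without tumors 5 and Po (adjusted p = 0.0637) and with the number of genes at the lowest value as a covariate (adjusted p = 0.0954). At an unadjusted p under 0.05, 2 of the 11 were lower (9.83% of all genes were lower), with a median difference of -0.87. With the number of genes at the lowest value as a covariate 7 of the 11 were lower at that p, with a median of -1.33 (6.46% of all genes were lower there), and without tumors 5, Po, 1 and Za 7, with a median of -1.32 (8.16% of all genes were lower there). KRT14, a basal keratin, was -0.97 to 3.62 in the high tumors and -0.91 to 9.54 in the low tumors, where tumor Da6 had the highest value. Its difference was -1.85 ± 1.04 (SE, adjusted p = 0.432), and 3 low tumors lay above all high tumors. It was -1.06 without tumor Da6, -3.11 with the background covariate (adjusted p = 0.332) and -3.31 without tumors 5, Po, 1 and Za (adjusted p = 0.204). Of 24 squamous and cornification genes none was called; 9 were lower and 0 higher at an unadjusted p under 0.05, against 9.83% lower over all genes, and the median was -1.30. The 9 became 7 without tumors 5 and Po and 6 with the covariate. PI3, which encodes the protease inhibitor elafin, was -3.34 to -0.41 in the high and -3.34 to 4.80 in the low tumors, a difference of -3.01 ± 0.90 (SE, adjusted p = 0.136). KLK11, a kallikrein protease, had -1.79 ± 0.59 (SE, adjusted p = 0.171). Of 27 tested genes in the study's p63 pathway list 0 were called, with a median of -0.42 and 6 lower at that p, against 9.83% of all genes (9 with the covariate, against 6.46%); GFI1, a zinc finger repressor, came closest, at -1.82 (adjusted p = 0.0777). In the study's basal list of 11 tested genes CD44 was called, against 0.265% called lower over all genes, with the same loss of the call. The list had 3 lower at that p, against 9.83% of all genes, and a median of -0.76. The median was -1.27 with the covariate and -1.28 without tumors 5, Po, 1 and Za. UPK1B, KRT5, KRT6A, TP63 and MKI67 were not analysed here.

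No growth factor receptor of the lists was called. ERBB2 had a difference of 0.64 ± 0.26 (SE, adjusted p = 0.263) and ERBB3 0.44 ± 0.18 (adjusted p = 0.274), both with an unadjusted p under 0.05 and neither called. Tumor 11 of the high group had the highest ERBB2, at 2.25. EGFR had 0.02 ± 0.25, and its groups overlapped, at -0.93 to 1.34 in the high and -0.51 to 0.78 in the low tumors. Their ligands lay the other way: HBEGF had -0.85 ± 0.27 (adjusted p = 0.154) and NRG1 -1.16 ± 0.45 (adjusted p = 0.239), the latter -0.76 with the background covariate. FGFR3 had -0.33 ± 0.30 (adjusted p = 0.654). Of 14 FGF receptor and MAPK feedback genes 0 were called and 4 were lower at an unadjusted p under 0.05, against 9.83% of all genes; the feedback inhibitors SPRY1 and SPRY4 had -1.23 (adjusted p = 0.121) and -1.74 (adjusted p = 0.163).

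Inflammatory cytokines and chemokines gave the most calls of any list, 2 of 22 (IL33 and LIF), against 0.265% called lower over all genes. Both calls were lost without tumors 5 and Po (adjusted p = 0.088 and 0.0993) and with the background covariate (adjusted p = 0.119 and 0.12), and IL33 was called in 4 and LIF in 3 of the 20 single-tumor omissions. The list had 13 lower and 0 higher genes at an unadjusted p under 0.05, where 9.83% of all genes were lower, and a median of -1.16. The median over the list in single tumors was -0.88 to 0.02 in the high and -0.98 to 1.78 in the low tumors. IL1B, a cytokine of myeloid cells, had -1.37 ± 0.38 (SE, adjusted p = 0.113). PTGS2, the inducible cyclooxygenase that is a drug target in canine iUC, was -2.999 to 1.55 in the high and -2.08 to 3.66 in the low tumors (difference -1.72 ± 0.64, SE, adjusted p = 0.221), and along the continuous score over 29 tumors it had -0.59 (adjusted p = 0.616). Without tumors 5 and Po the list median was -1.07 with 12 lower at that p (7.6% of all genes), and with the background covariate -0.93 with 10 (6.46% of all genes). In the study's infiltrated list RARRES2 was the 1 gene called of 22, against 0.265% called lower over all genes, with a median of -0.79.

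Most markers of immune cells had negative differences as well, and none was called. For B and plasma cells, 9 of 12 were lower and 1 higher at an unadjusted p under 0.05, against 9.83% lower over all genes, with a median of -1.94. The 9 became 5 without tumors 5 and Po and 6 with the background covariate. The list median of single tumors was -1.47 to -0.06 in the high and -0.89 to 4.86 in the low tumors. MS4A1, which encodes CD20, was above its lowest value in 8 of 10 high and 9 of 10 low tumors, with a difference of -3.07 ± 0.88 (SE, adjusted p = 0.12), and CD22 had -1.06 (adjusted p = 0.12). For T and NK cells, 7 of 12 were lower at that p, with a median of -1.12 and tumor ranges of -1.70 to 0.14 and -0.90 to 2.65. The 7 became 4 without tumors 5 and Po, 2 without tumors 5, Po, 1 and Za and 3 with the covariate. CD3E, a subunit of the T cell receptor complex, was -1.96 to 0.44 in the high and -2.03 to 3.79 in the low tumors (difference -1.84 ± 0.55, SE, adjusted p = 0.136), and CD3G had -1.48. Tumor Da6, the lowest in score, had the highest CD3E, CD3G and MS4A1 of the low tumors, and tumor 12 had the lowest CD3E and CD3G. In neutrophil markers 6 of 7 were lower at that p, with a median of -1.51 and tumor ranges of -2.12 to 1.08 and -1.20 to 1.86. The 6 became 4 without tumors 5 and Po and 4 with the covariate, where the median was -1.065. CSF3R, the receptor of a granulocyte growth factor, had -1.65 (adjusted p = 0.137). Macrophage markers had a smaller median, -0.58, with 2 of 12 lower (MARCO and C1QC), against 9.83% of all genes, and 0 of 12 without tumors 5 and Po or with the covariate.

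Stromal markers also had negative medians, and 9.83% of all genes were lower at an unadjusted p under 0.05. Endothelial markers had a median of -1.03, with 5 of 9 lower at an unadjusted p under 0.05 and tumor ranges of -2.06 to 0.70 in the high and -1.38 to 1.98 in the low tumors; PECAM1 had -1.18 (adjusted p = 0.163) and KDR -1.34 (adjusted p = 0.191). Fibroblast and matrix markers had a median of -0.82 with 3 of 12 lower, PDGFRB (-1.63, adjusted p = 0.125) and FBLN1 (-1.47, adjusted p = 0.12) among them. Smooth muscle markers had a median of -0.70 with 2 of 7 lower, CALD1 and TPM2. Their median was -1.12 with the background covariate and -1.32 without tumors 5, Po, 1 and Za. Without tumors 5 and Po 5 fibroblast and 4 smooth muscle markers were lower at that p, against 7.6% of all genes. All 12 mesenchymal transition genes had negative differences, with a median of -0.96 and 7 at that p. ZEB1, a repressor of epithelial genes, was -1.48 to -0.27 in the high and -1.17 to 2.05 in the low tumors (difference -1.27 ± 0.35, SE, adjusted p = 0.113), and 7 low tumors lay above every high tumor. AXL, a receptor tyrosine kinase, had -0.96 and VIM, the mesenchymal intermediate filament, -0.92 (adjusted p = 0.26). The Schwann cell and nerve list had 5 genes tested, a median of -1.08 and 1 lower, NCAM1. It had 0 lower without tumors 5 and Po and 0 with the background covariate, and its median with that covariate was -0.70. The part that different amounts of immune, vessel and stromal cells had in the called genes was not tested.

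**Figure D5:**
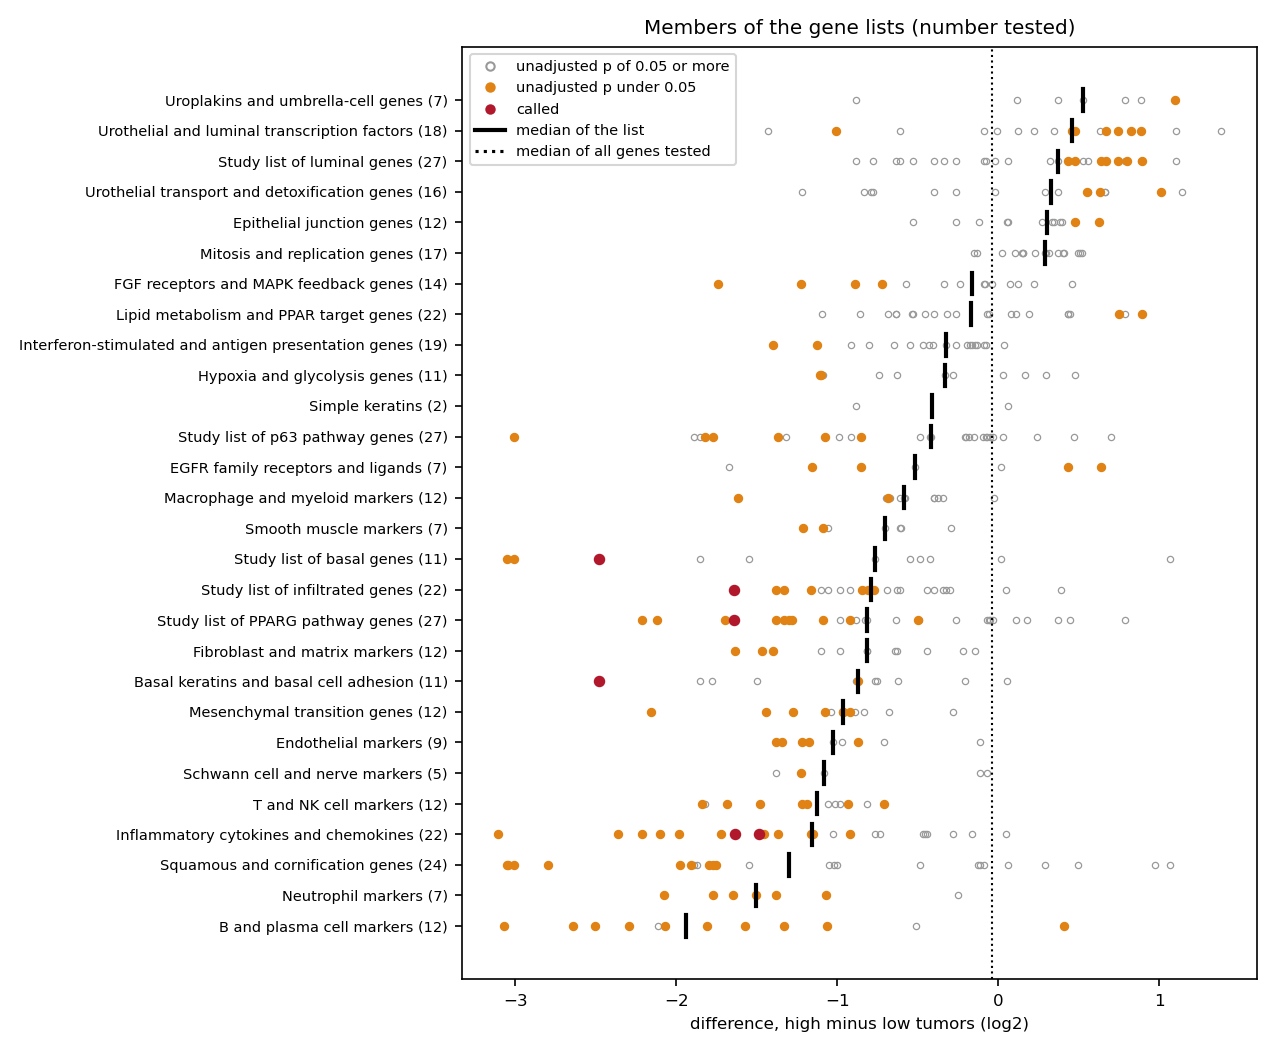
Differences between high and low tumors (log2, x axis) of the members of each gene list, with black bars at list medians and a dotted line at the median of all genes tested, -0.03. Uroplakins and luminal transcription factors have the highest medians, 0.53 and 0.46, B and plasma cell markers the lowest, -1.94, and the called genes in the lists (red) are CD44, RARRES2, IL33 and LIF.

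Lists of other programs gave no call either. Interferon-stimulated and antigen presentation genes had 0 of 19 called, 2 lower at an unadjusted p under 0.05, against 9.83% of all genes, and a median of -0.32. Their median was -0.16 with the background covariate and -0.15 without tumors 5, Po, 1 and Za, with 0 lower at that p in each. NLRC5, the activator of MHC class I genes, had -1.40 (adjusted p = 0.225) and IFIT3 -1.12, which was -0.71 with the background covariate. CD274, which encodes PD-L1, had -0.55 ± 0.31 (SE, adjusted p = 0.436), with tumor Da6 highest at 1.96 and tumor Ab lowest at -1.77. LY6E, an interferon-induced surface protein, had -1.75 ± 0.81 (SE, adjusted p = 0.322), and -1.04 with the background covariate. Mitosis and replication genes had 0 of 17 called, 0 at an unadjusted p under 0.05 and a median of 0.29, with PLK1 at 0.52 and TOP2A at 0.51, or 0.25 without tumor 2. The list median was 0.18 both with the background covariate and along the continuous score. Hypoxia and glycolysis genes had 0 of 11 called, 2 lower at that p, against 9.83% of all genes, and a median of -0.33, which was -0.67 with the background covariate and -0.53, with 4 lower, without tumors 5, Po, 1 and Za. VEGFA had -1.11 (adjusted p = 0.298) and ADM -1.10. The 2 simple keratins tested gave 0 calls and 0 at that p, and the 7 EGFR family genes 0 calls, with 2 higher and 2 lower at that p, against 4.74% and 9.83% of all genes.

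With the score as a continuous covariate over all 29 tumors, and the difference scaled to the gap of 1.12 between the mean scores of the groups, 363 genes were called (1.89%), 43 higher (0.224%) and 320 lower (1.66%). Of the 53 genes called between the groups, 31 were among them and all 53 had the same sign. UPK1A was called here, at 1.33 (adjusted p = 0.0145), which makes it the 1 listed umbrella cell gene to pass. Tumor Da6, the lowest in score, stood apart in UPK1A at -4.65, and the difference between the groups leaned on it. The value of UPK1A along the score without that tumor is not reported here. Of the inflammatory list 6 of 22 were called lower, IL33 and LIF with IL1B (-1.28, adjusted p = 0.0161), IL6 (-1.97), CXCL17 (-1.20) and TNF (-1.24). Of the mesenchymal list SNAI1 (-1.47), PRRX1 (-2.02) and ZEB1 (-1.16) were called, and of the B cell list CD79A (-2.39), CD79B (-2.20) and JCHAIN (-2.57). Other lists had genes called lower too: 3 of 24 squamous, 2 of 9 endothelial, 1 of 7 neutrophil and 1 of 12 fibroblast genes. In the study's lists these were 3 of 27 p63 pathway, 4 of 27 PPARG pathway and 1 of 22 infiltrated genes. Over all genes 1.66% were called lower. NLRC5 (-1.38, adjusted p = 0.0467) and VEGFA (-1.21, adjusted p = 0.0396) were called here too. IL6, CXCL17, TNF, SNAI1, PRRX1, CD79A, CD79B and JCHAIN are named because they passed here. The tumors at the ends of the score carried much of this count: without tumors Ab and Da6 55 genes were called, 30 of the 363 among them, and without tumors 5 and Po 147 were called, 137 of the 363 among them.

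The genes with a symbol and the highest positive Pearson's r with the score over the 29 tumors were KRBA2 (0.81), PXYLP1 (0.79), RECQL5 (0.78), GRHL3 (0.76) and C17orf75 (0.75). In the other direction TENM2 had -0.80 and GLIS3 -0.76. The tumors share the grouping and the depth of each library, so these values are a description. KRBA2, a gene with a KRAB domain, was 0.16 to 0.73 in the high and -0.96 to 0.32 in the low tumors, so 9 low tumors lay below every high tumor, with a difference of 0.70 ± 0.16 (SE, adjusted p = 0.059). PXYLP1, a phosphatase of glycosaminoglycan assembly, had 0.83 (adjusted p = 0.13) and RECQL5, a DNA helicase, 0.67 (adjusted p = 0.121). C17orf75 had 0.53 (adjusted p = 0.144).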

How the data were processed

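Values of 29 tumors and 4 normals were analysed in the 2 deposited tables, which the authors made by aligning paired-end reads to CanFam3.1 with COBWeb in Strand NGS, quantifying annotated genes and normalizing by TMM or DESeq; the deposited values are on a log2 scale, centred on each gene's median over 33 samples. They are not counts, so the depth of a sample is unknown and no count test was run. The TMM table deposited by the authors holds 25096 genes, 12202 with a symbol, and the one they normalized by DESeq 25139. The last line of each is incomplete and was left out. Genes with no line in them were not analysed here.

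Groups were the 10 tumors with the highest and the 10 with the lowest mean of PPARG, FOXA1, GATA3 and UPK2. The other genes above a shared lowest value in at least 10 of 29 tumors were tested in R 4.3.3 by limma 3.58.1. It used lmFit and eBayes with no trend and Benjamini-Hochberg adjustment, and calls needed an adjusted p of at most 0.05 and at least 2-fold. The fit was run on simulated independent normal values with no floor and no background difference, so that check does not cover these features. Differences between replicates are differences between dogs. Library measures were tested by two-sided permutation (100000 resamples). Python 3.11.15 with numpy 2.4.6, pandas 2.3.3, scipy 1.17.1 and matplotlib 3.10.9 was used. The members, lists and tests were chosen with earlier results of these data known, and the study's own lists were reported on these samples, so they are not independent evidence.

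Named genes were the 10 with a symbol with the largest rise and fall among called genes of the same sign in the other deposited table; in each list up to 4 called members, else the 2 with the smallest p; a list of 24 urothelial, receptor and immune genes; the scoring genes; and the 5 with the highest r with the score. A few listed genes entered the fits and counts but are not reported here. Other called genes were named after their values were seen. Alternatives were the other deposited table, other variance models, array weights, other groupings, scores, filters and thresholds, covariates, centring and each tumor left out. Added after the data were seen were fits without tumors 5 and Po, without 5, Po, 1 and Za, or without Ab and Da6, the continuous score without either pair, the olfactory share as covariate, and the test of each scoring gene left out of the score.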

Additional observations from a re-analysis of the deposited data

Results flagged for a closer look

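The high and the low tumors, taken separately for each background measure and named gene other than the scoring genes, made 154 groups of 10 tumors. In these, 13 values stood apart from the nearest other tumor by more of the group's range than Dixon's critical value allows. Chance gives this in about 1 of 20 groups. Tumor Da6, the lowest in score, had 2 of them in the low group, UPK1A at -4.65 and CD274 at 1.96. Tumor Ab, the highest in score, had 2 in the high group, RECQL5 at 1.498 and KCTD16 at 0.91. In tumor 5 KRT20 was 8.32, and in tumor JE UCHL1 was 2.48, both in the low group. In the high group tumor 20 stood apart in C1QC at 1.87 and NLRC5 at 2.52, tumor 11 in ERBB2 at 2.25, tumor 10 in SLC14A1 at -0.95 and HBEGF at -1.92, and tumor 2_699898 in SPRY4 at -4.73 and IL33 at -2.22.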

How the results depend on the processing

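Against 2 higher and 51 lower genes, the counts were 2 and 33 with a mean-variance trend, 6 and 74 with array weights, 5 and 88 with the middle tumors as a group of their own, 6 and 55 with 7 tumors a group, and 2 and 30 without the filter on low values. Without the fold threshold 4 and 51 passed. With 14 tumors a group limma gave 0 and 0, with 2393 genes at an unadjusted p under 0.05. With the score lacking PPARG they were 5 and 30, lacking FOXA1 1 and 12, lacking UPK2 1 and 52, and lacking GATA3 0 and 3 (828 higher and 1749 lower at an unadjusted p under 0.05). With the genes at the lowest value as a covariate they were 1 and 4, and with the olfactory share 1 and 13. Without tumors 5 and Po they were 1 and 16, without tumors 5, Po, 1 and Za 10 and 74, and without tumors Ab and Da6 1 and 22. Along the continuous score they were 43 and 320, 24 and 123 without tumors 5 and Po, and 13 and 42 without tumors Ab and Da6. Leaving out 1 tumor at a time gave 1 to 8 higher and 15 to 168 lower genes. The total of 53 moved by over 1.5 times in 15 of these 20 omissions: to 176 without tumor 1 and 80 without tumor 5, and to 16 to 33 without tumors CH, 2_699898, 3, 20, 18, 11, 16, 19, 10, 2, JE, Po and Da6. The cause of these changes was not tested. The table normalized by DESeq by the authors (2 and 61), robust variances, the scaled score, the stricter filter and centring gave counts within 1.5 times. The difference in the olfactory share was -11.1 percentage points without tumors 5 and Po (permutation p = 0.106).

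Of 3298 values of named genes, 0 turned the direction of a call, and 35 of genes that were not called changed sign. No paired analysis was possible because each tumor came from a different dog and replicate numbers are names only. Precision is limited by the 10 tumors a group, and the depth of each sample is unknown. The study chose tumors made up almost wholly of epithelial cells, but the share of tumor cells in each biopsy is not given in the sources used here. The groups cut a continuous score, and background cannot be told apart from low expression of genes near their lowest value.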
